A study of Mus musculus with 9 samples.

Results

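The genes described here code for proteins of the synaptic vesicle and of the machinery that releases and recovers it. They were chosen by name: each of 32 symbols was looked up in the gene annotation, and all 32 were found among the 55335 genes of the deposited table. All 32 also entered the tests, which covered the 15997 genes whose mean reached 0.5 FPKM (fragments per kilobase of transcript, scaled to the number of mapped fragments). The samples were substantia nigra tissue of mice in 3 groups with 3 libraries each. The MPTP + running mice received MPTP-HCl in saline into the abdominal cavity at 20 mg/kg, given in 2 injections a week over 5 weeks, and ran voluntarily in a wheel for 2 months from the first injection on. The MPTP mice received the same injections with no running named, and the vehicle mice received saline on the same schedule of 2 injections a week over 5 weeks. MPTP is a toxin whose metabolite enters dopaminergic neurons through the dopamine transporter and damages them. The sources used here name no strain, sex or age. They do not say whether each library came from 1 mouse, so a p-value here measures no more than the spread among the libraries.

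At a presynaptic terminal, vesicles filled with transmitter are held by synapsins, docked and primed at the active zone by scaffold and priming proteins, and fused with the plasma membrane by SNARE proteins when a synaptotagmin binds calcium. Their membrane is then taken back by endocytosis and used again. The substantia nigra holds dopaminergic neurons, many inhibitory neurons and the terminals of neurons whose cell bodies, and most of whose mRNA, lie in other regions, so mRNA in the tissue reports on local cell bodies more than on the terminals found there.

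Of the 32 genes, 27 had at least 1 promoter in the RefSeq promoter table (build GRCm38.p6), as 35 windows of 300 bases that run from 250 bases before a transcription start to 50 bases after it. For Syt2 and Syt1, 1 promoter window each is shown, because the ratio of these paralogs varied most between libraries. A further window of Syt2 (from chr1:134709050) and of Syt1 (from chr10:109009062) held no match to the motifs named below and is not shown. The promoter of Syn1 is shown because it held both motifs searched for among the members. Capitals mark matches to a motif on either strand, and each window is written 5′ to 3′ on the strand of its gene.
Syt2, chr1:134646362-134646661, plus strand: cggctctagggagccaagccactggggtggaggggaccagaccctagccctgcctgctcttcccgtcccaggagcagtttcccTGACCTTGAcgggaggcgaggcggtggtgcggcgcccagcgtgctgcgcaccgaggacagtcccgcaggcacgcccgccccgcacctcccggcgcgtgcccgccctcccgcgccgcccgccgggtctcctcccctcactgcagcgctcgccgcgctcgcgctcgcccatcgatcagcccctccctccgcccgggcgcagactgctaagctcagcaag
Syt1, chr10:109010926-109011225, minus strand: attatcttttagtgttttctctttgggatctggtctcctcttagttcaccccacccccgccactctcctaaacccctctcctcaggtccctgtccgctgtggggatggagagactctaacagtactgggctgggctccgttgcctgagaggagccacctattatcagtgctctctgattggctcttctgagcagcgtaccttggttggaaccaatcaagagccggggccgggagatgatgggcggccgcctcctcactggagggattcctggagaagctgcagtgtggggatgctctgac
Syn1, chrX:20920869-20921168, minus strand: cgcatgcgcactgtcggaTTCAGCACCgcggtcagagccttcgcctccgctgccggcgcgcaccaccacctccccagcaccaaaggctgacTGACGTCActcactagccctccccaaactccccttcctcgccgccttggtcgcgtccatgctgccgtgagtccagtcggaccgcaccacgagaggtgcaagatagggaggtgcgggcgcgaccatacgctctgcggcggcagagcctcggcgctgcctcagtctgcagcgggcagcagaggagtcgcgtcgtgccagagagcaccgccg
The capitals in Syn1 are TTCAGCACC, the left part of the RE1 element that the repressor REST binds, and TGACGTCA, the cAMP response element. TTCAGCACC was also found in the promoter of Unc13a, and was present in 0.371% of all 32851 promoters of the table. TGACGTCA was also found in the promoter of Sh3gl2, and was present in 1.79% of all promoters. The capitals in Syt2 are the reverse complement of TCAAGGTCA, an element of estrogen-related receptors, which was searched for after the values had been seen and was present in 0.423% of all promoters. Syt1 held none of these 3 motifs in this window. No match overlapped another. The median GC content was 65.3% over the 35 windows of the members and 52.7% over all windows. Snap25, Vamp2, Rims2, Syngr3 and Syt4 are described without a promoter.

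Per library, the 32 members took 0.759% to 0.935% of the summed FPKM. Within a preset range of depths, the steps between low FPKM values fitted best at 22160000 to 26980000 fragments, with exonic lengths taken from the annotation. Only 16.2% to 26.0% of those values came within 0.02 of a whole number of fragments, so these depths are rough estimates. Th, which marks dopaminergic neurons, was at 2.66 to 6.69 FPKM in MPTP + running, 1.64 to 12.5 FPKM in MPTP and 2.97 to 15.6 FPKM in vehicle libraries, and Slc6a3, the dopamine transporter, was listed at 0 in 1 library (MPTP + running 2) and reached 14.4 FPKM in another. Over all 14 dopaminergic markers the summed level was 55.8 to 93.6 FPKM in MPTP + running, 50.2 to 111 FPKM in MPTP and 59.2 to 95.4 FPKM in vehicle libraries. Among the 12 of them that were tested, higher values numbered 4 of 12 for MPTP + running minus MPTP, 6 for MPTP + running minus vehicle and 8 for MPTP minus vehicle, with 0 past the test (limma) and a median difference of 0.043 for MPTP minus vehicle. Slc17a7, a vesicular glutamate transporter of cortex and hippocampus, was at 45.5 to 111 FPKM in MPTP + running, 42.9 to 127 FPKM in MPTP and 20.9 to 97.9 FPKM in vehicle libraries. This 1 marker was thus present in every library. Where the cells that carried it lay was not tested.

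No member passed the test in any comparison. Between MPTP + running and MPTP, 0 of 32 members were called, against 0% of all tested genes, and between MPTP + running and vehicle 0 of 32, against 0%. Between MPTP and vehicle, 0 of 32 members were called, against 0.0125% of all tested genes (limma, Benjamini-Hochberg adjusted p under 0.05). At an unadjusted p under 0.05 the counts were 1 member (Snap91) against 3.99% of all genes for MPTP + running minus MPTP, 0 members against 6.54% for MPTP + running minus vehicle, and 0 members against 4.09% for MPTP minus vehicle. In bulk tissue, fewer cells of a type and less RNA per cell cannot be told apart, and this holds for each level given here.

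Only a few members had groups that did not overlap, namely Snap91, Amph, Napb and Pclo. In both directions together their share was close to or below that of all genes, so no common role is read from them. Snap91, Amph and Napb were higher in all 3 MPTP + running libraries than in all 3 MPTP libraries, which is 9.38% of the members, against 2.66% of all tested genes, and 0 members were lower in this way, against 5.36%. In both directions together the members' share was thus close to the 8.02% of all genes. Snap91 and Pclo were lower in all 3 MPTP libraries than in all 3 vehicle libraries, which is 6.25% of the members, against 4.23% of all genes, and 0 members were higher, against 5.2%. Both directions together covered 9.43% of all genes. Pclo alone was lower in all 3 MPTP + running libraries than in all 3 vehicle libraries, which is 3.12% of the members, against 9.2% of all genes, and 0 members were higher, against 6.38%. Both directions together covered 15.6% of all genes. The comparisons share libraries, since the MPTP group stands in 2 of them and so do the vehicle and the MPTP + running groups.

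Read as signs only, 23 of 32 members were higher in MPTP + running than in MPTP mice (71.9%, against 45.7% of all genes), with a median difference of 0.062 on the log2(FPKM + 1) scale and −0.012 over all genes. That median was 0.017 without MPTP 1, 0.024 without MPTP + running 3, and 0.13 without MPTP 2 or without MPTP + running 2. Between MPTP + running and vehicle, 19 of 32 were higher (59.4%, against 44.7%), with a median of 0.033 and −0.022 over all genes. When each library was rescaled to the same sum, which moved the median of all genes in this comparison to −0.10, the count was 7 of 32 with a median of −0.050, and it was 10 of 32 with a median of −0.041 after quantile normalization. The median was −0.0072 without vehicle 1, 0.0076 without MPTP + running 3, 0.0085 without vehicle 3, 0.052 without MPTP + running 2 and 0.11 without vehicle 2. Between MPTP and vehicle, 10 of 32 were higher (31.2%, against 48.1%), with a median of −0.052 and −0.0059 over all genes. That count was 17 of 32 without MPTP 1 and 6 of 32 without MPTP 2 or without vehicle 1, and 4 of 32 with array weights. The median was 0.0077 without MPTP 1, −0.0062 without vehicle 2, −0.095 without vehicle 1 and −0.099 without MPTP 2.

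**Figure D1:**
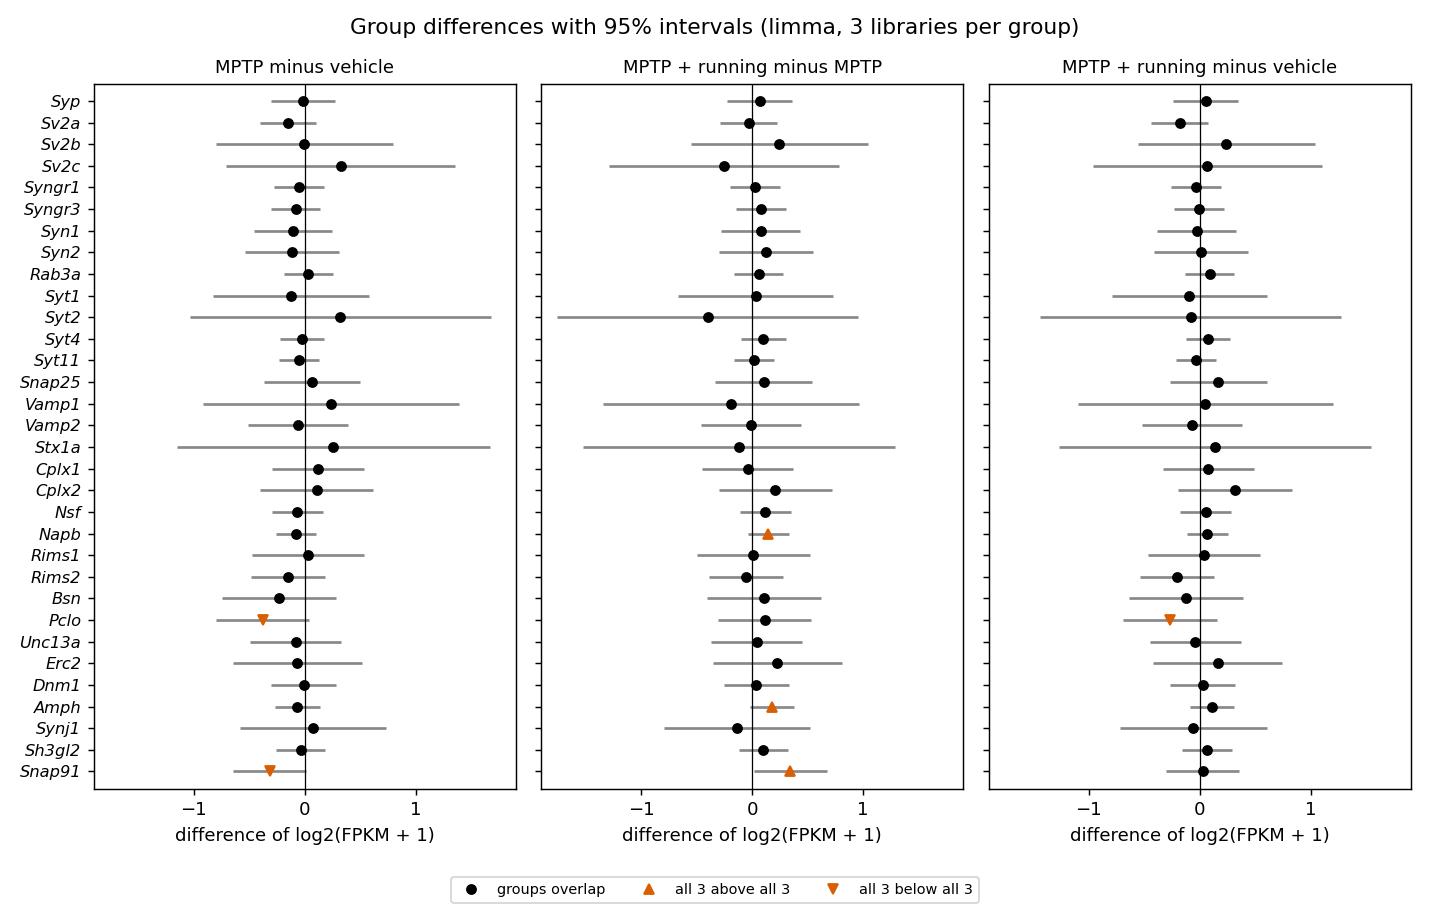
Difference of group means on the log2(FPKM + 1) scale (points) with 95% intervals (lines) for the 32 genes in each comparison, in limma with 3 libraries per group; orange triangles mark genes whose groups do not overlap. The interval of 1 gene, Snap91 for MPTP + running minus MPTP, lies to 1 side of 0, and Syt2, Stx1a, Vamp1 and Sv2c have the widest intervals.

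The intervals give the size of difference that these libraries leave possible. The 95% interval lay within a 2-fold difference in either direction for 27 of 32 members between MPTP + running and MPTP, for 27 between MPTP + running and vehicle, and for 28 between MPTP and vehicle. Sv2c, Syt2, Vamp1 and Stx1a lay outside this range in all 3 comparisons, and Sv2b in both comparisons with MPTP + running. Within a 1.5-fold difference lay 21, 20 and 20 members in the same order of comparisons. Leaving out 1 library at a time changed the sign of the difference at least once for 20 of 32 members between MPTP + running and MPTP, for 21 between MPTP + running and vehicle, and for 20 between MPTP and vehicle. A p that misses the threshold therefore does not show that a gene was alike in the groups.

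**Figure D2:**
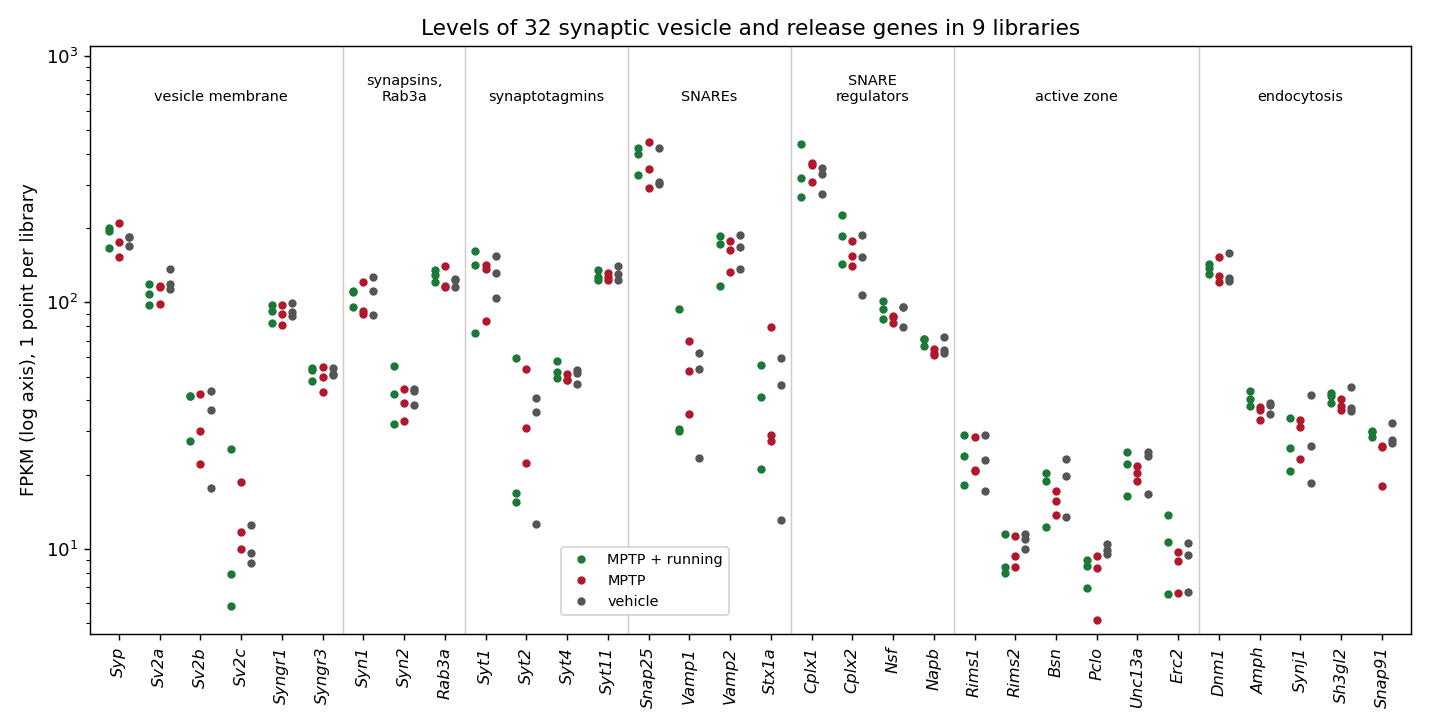
FPKM (log axis) of each of the 32 genes, grouped by role, with 1 point per library for MPTP + running (green), MPTP (red) and vehicle (grey) mice. Snap25 and Cplx1 are highest, Pclo, Erc2 and Rims2 lowest, and the points of the 3 groups lie over each other for most genes.

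Levels differed between members far more than between groups, from a mean of 365 FPKM for Snap25 to 8.55 FPKM for Pclo. FPKM is scaled to transcript length, so that levels can be set side by side between genes. The tool that computed it, and the length it used, are not stated, so ranks between genes are approximate. Snap25, Cplx1 and Syp ranked 51, 54 and 116 among all listed genes by mean FPKM. The scaffold genes Rims2, Erc2 and Pclo were the lowest members, with means of 9.93, 9.20 and 8.55 FPKM.

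Among the proteins of the vesicle membrane, Syp codes for synaptophysin, one of the most abundant vesicle proteins. Syp was at 196, 166 and 199.9 FPKM in MPTP + running mice, 153, 210.4 and 175 FPKM in MPTP mice and 169.7, 184 and 185 FPKM in vehicle mice. The groups overlapped, with both the lowest and the highest library among the MPTP mice. Reads of Syp and of an antisense gene, Gm14703, which overlaps 16.8% of the exonic bases of Syp and had a mean of 0.880 FPKM, cannot be told apart, as the sources used here do not state whether counting used strand. The SV2 proteins are vesicle glycoproteins that act on priming and calcium response, and SV2A binds the drug levetiracetam. Sv2a was at 97.9, 118 and 108 FPKM in MPTP + running mice, 117, 98.4 and 116 FPKM in MPTP mice and 136, 119 and 113 FPKM in vehicle mice. Its highest library was vehicle 1 and the groups overlapped, with differences of −0.15 for MPTP minus vehicle, −0.029 for MPTP + running minus MPTP and −0.18 for MPTP + running minus vehicle. The difference for MPTP minus vehicle was −0.071 without MPTP 2, that for MPTP + running minus MPTP was 0.040 without MPTP + running 1, and that for MPTP + running minus vehicle was −0.10 without vehicle 1. Sv2b was at 41.6, 27.4 and 41.7 FPKM in MPTP + running mice, 22.0, 42.4 and 30.0 FPKM in MPTP mice and 17.6, 43.7 and 36.5 FPKM in vehicle mice. Sv2c, the paralog known to be enriched in the basal ganglia, was at 5.85, 25.4 and 7.87 FPKM in MPTP + running mice, 18.6, 11.7 and 9.95 FPKM in MPTP mice and 12.5, 9.59 and 8.74 FPKM in vehicle mice. For Sv2b 1 library of each group stood low (MPTP + running 2, MPTP 1 and vehicle 1), and in the same 3 libraries Sv2c was the highest of its group. Sv2c thus ranged over 4.34-fold within the MPTP + running group alone. Syngr1 and Syngr3 code for synaptogyrins, relatives of synaptophysin, and were steady. Syngr1 was at 97.9, 82.6 and 91.9 FPKM in MPTP + running mice, 81.0, 97.3 and 89.7 FPKM in MPTP mice and 88.0, 99.0 and 91.1 FPKM in vehicle mice. Syngr3 was at 53.2, 48.0 and 54.4 FPKM in MPTP + running mice, 43.4, 49.7 and 54.5 FPKM in MPTP mice and 54.2, 51.1 and 50.7 FPKM in vehicle mice.

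Synapsins are phosphoproteins that tether vesicles to each other and to actin, and Rab3a is the small GTPase that guides vesicles to release sites. Syn1 was at 112, 95.8 and 111 FPKM in MPTP + running mice, 92.4, 121 and 90.02 FPKM in MPTP mice and 88.9, 126 and 112 FPKM in vehicle mice. Syn2 was at 42.6, 32.2 and 55.1 FPKM in MPTP + running mice, 33.1, 39.1 and 44.7 FPKM in MPTP mice and 38.2, 43.5 and 44.5 FPKM in vehicle mice. The 3 groups overlapped for both synapsins, and Syn2 had its lowest and its highest library within the MPTP + running group. Rab3a was at 121, 129.5 and 136 FPKM in MPTP + running mice, 117, 141 and 115 FPKM in MPTP mice and 115, 125 and 123 FPKM in vehicle mice, with overlapping groups, and was among the steadier members. Its difference was 0.090 (SE 0.097, 95% interval −0.13 to 0.31) for MPTP + running minus vehicle, and −0.0080 after quantile normalization.

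Synaptotagmins sense calcium and trigger fusion. Syt1 and Syt2 are the fast sensors, with Syt1 the main one in forebrain and Syt2 in brainstem, spinal cord and fast inhibitory neurons. Syt1 was at 161, 75.3 and 142 FPKM in MPTP + running mice, 84.3, 136 and 142 FPKM in MPTP mice and 104, 131 and 154 FPKM in vehicle mice. Syt2 was at 15.4, 59.6 and 16.8 FPKM in MPTP + running mice, 53.8, 30.9 and 22.3 FPKM in MPTP mice and 40.8, 35.8 and 12.6 FPKM in vehicle mice. The library with the lowest Syt1, MPTP + running 2, had the highest Syt2, and MPTP 1 was likewise lowest in Syt1 and highest in Syt2 within its group. Differences in Syt2 were 0.32 for MPTP minus vehicle, −0.40 for MPTP + running minus MPTP and −0.081 for MPTP + running minus vehicle, each with an SE of 0.60. The sign of the MPTP minus vehicle difference changed without MPTP 1 (−0.016) or without vehicle 3 (−0.19). The MPTP + running minus MPTP difference was −0.065 without MPTP 1 and −1.01 without MPTP + running 2, and that of MPTP + running minus vehicle lay between −0.69 (without MPTP + running 2) and 0.25 (without MPTP + running 1). Syt4 and Syt11, which do not bind calcium in the way of the fast sensors, were steady, at 46.6 to 58.1 and 123 to 141 FPKM. Syt11 had the smallest spread of the 32 genes, with an SD of 0.066 on the log2(FPKM + 1) scale over 9 libraries. An antisense gene, Gm26658, overlaps 14.5% of the exonic bases of Syt4 and had a mean of 0.352 FPKM.

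The SNARE proteins form the complex that drives fusion: SNAP25 and syntaxin 1A on the plasma membrane, and VAMP1 or VAMP2 (synaptobrevins) on the vesicle. Snap25 was at 402, 425 and 329 FPKM in MPTP + running mice, 348, 450.0 and 290.2 FPKM in MPTP mice and 308, 425 and 303 FPKM in vehicle mice. The groups overlapped, and the highest and the lowest library were both MPTP. Stx1a was at 55.7, 21.1 and 41.4 FPKM in MPTP + running mice, 28.9, 79.7 and 27.4 FPKM in MPTP mice and 13.1, 59.3 and 46.0 FPKM in vehicle mice. Stx1a was the most variable member, 6.09-fold between MPTP 2 and vehicle 1, and the groups overlapped over most of that range. Its differences were 0.26 for MPTP minus vehicle, −0.12 for MPTP + running minus MPTP and 0.14 for MPTP + running minus vehicle, each with an SE of 0.62, and each changed sign on leaving out 1 library (for example vehicle 1 in both comparisons with vehicle, and MPTP 2 in the other). Vamp1 was at 30.0, 94.2 and 30.5 FPKM in MPTP + running mice, 69.6, 52.9 and 35.2 FPKM in MPTP mice and 62.1, 53.5 and 23.3 FPKM in vehicle mice. Vamp2 was at 187, 117 and 173 FPKM in MPTP + running mice, 133, 178 and 163 FPKM in MPTP mice and 137, 168 and 188 FPKM in vehicle mice. Vamp1 was high where Syt2 was high, in MPTP + running 2, MPTP 1 and vehicle 1, and Vamp2 was the lowest of its group in these 3 libraries. No group stood apart in either synaptobrevin.

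Complexins clamp and then promote SNARE-driven fusion, NSF is the ATPase that takes SNARE complexes apart, and Napb codes for beta-SNAP, the adaptor that recruits NSF. Cplx1 was at 319.5, 441 and 268 FPKM in MPTP + running mice, 361, 369 and 308 FPKM in MPTP mice and 333, 350.2 and 274 FPKM in vehicle mice. Cplx2 was at 186, 143 and 226 FPKM in MPTP + running mice, 155, 178 and 141 FPKM in MPTP mice and 108, 188 and 153 FPKM in vehicle mice. The difference of Cplx2 was 0.32 for MPTP + running minus vehicle (SE 0.22, 95% interval −0.19 to 0.83, limma adjusted p = 0.777), with overlapping groups, and 0.10 without vehicle 1, its lowest library. Nsf stayed at 79.3 to 102 FPKM. Napb was at 66.6, 71.0 and 70.9 FPKM in MPTP + running mice, 61.3, 64.4 and 62.3 FPKM in MPTP mice and 64.2, 72.3 and 62.2 FPKM in vehicle mice. All 3 MPTP + running libraries lay above all 3 MPTP libraries, by 0.15 (SE 0.080, limma adjusted p = 0.9999), and the vehicle libraries spanned both groups.

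The active zone scaffold positions vesicles and calcium channels. RIM1 and RIM2 (Rims1, Rims2) bind Rab3 and calcium channels, Bassoon and Piccolo (Bsn, Pclo) are very large scaffold proteins, Munc13-1 (Unc13a) primes vesicles and ELKS2 (Erc2) binds RIM. Pclo (ENSMUSG00000061601), a protein-coding gene on the plus strand of chromosome 5 at 14514918 to 14863459 (GRCm38), was at 8.51, 6.89 and 8.97 FPKM in MPTP + running mice, 8.36, 5.13 and 9.33 FPKM in MPTP mice and 9.49, 10.5 and 9.85 FPKM in vehicle mice. The vehicle libraries were the 3 highest of all 9, and MPTP 2 was far below the rest. The difference was −0.38 for MPTP minus vehicle (SE 0.18, 95% interval −0.80 to 0.040, limma adjusted p = 0.991) and −0.15 without MPTP 2. For MPTP + running minus vehicle it was −0.27 (SE 0.18, adjusted p = 0.771 in limma), and −0.17 without MPTP + running 2. Bsn, the closest relative of Pclo, was at 18.8, 12.2 and 20.4 FPKM in MPTP + running mice, 13.7, 15.7 and 17.2 FPKM in MPTP mice and 13.5, 23.1 and 19.8 FPKM in vehicle mice. Bsn overlapped between all groups, and vehicle 1, high in Pclo, was among the lowest in Bsn. Rims1 was at 29.0, 18.2 and 23.7 FPKM in MPTP + running mice, 20.6, 28.3 and 20.9 FPKM in MPTP mice and 17.2, 29.1 and 23.0 FPKM in vehicle mice. Rims2 was at 11.5, 7.97 and 8.47 FPKM in MPTP + running mice, 9.37, 8.39 and 11.2 FPKM in MPTP mice and 11.5, 9.95 and 10.9 FPKM in vehicle mice. The difference of Rims2 was −0.21 for MPTP + running minus vehicle (SE 0.15, limma adjusted p = 0.777), with overlapping groups, and it was −0.35 without MPTP + running 1 and −0.11 without MPTP + running 2. Unc13a ranged from 16.3 to 24.8 FPKM, and Erc2 was at 10.6, 6.56 and 13.7 FPKM in MPTP + running mice, 6.61, 9.68 and 8.91 FPKM in MPTP mice and 6.68, 9.41 and 10.5 FPKM in vehicle mice. Both Unc13a and Erc2 were lowest of their group in MPTP + running 2, MPTP 1 and vehicle 1.

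The last step recovers vesicle membrane. Dynamin 1 (Dnm1) cuts vesicles from the membrane, amphiphysin (Amph) and endophilin A1 (Sh3gl2) bend it and recruit partners, synaptojanin 1 (Synj1) removes phosphates from lipids so that clathrin is shed, and AP180 (Snap91) assembles clathrin on the vesicle. Snap91 (ENSMUSG00000033419), a protein-coding gene on the minus strand of chromosome 9 at 86765923 to 86880654 (GRCm38), was at 28.5, 29.7 and 30.0 FPKM in MPTP + running mice, 17.9, 25.9 and 26.1 FPKM in MPTP mice and 27.5, 32.5 and 26.8 FPKM in vehicle mice. The MPTP libraries were the 3 lowest of all 9, with MPTP 1 far below the other two, while MPTP + running and vehicle libraries overlapped. The difference was 0.34 for MPTP + running minus MPTP (SE 0.14, 95% interval 0.015 to 0.67, limma adjusted p = 0.9999), and 0.17 without MPTP 1. It was −0.32 for MPTP minus vehicle (SE 0.14, limma adjusted p = 0.991), and −0.15 without MPTP 1. For MPTP + running minus vehicle it was 0.027. Amph was at 40.4, 37.8 and 43.8 FPKM in MPTP + running mice, 33.4, 36.5 and 37.7 FPKM in MPTP mice and 35.1, 39.2 and 38.4 FPKM in vehicle mice. All 3 MPTP + running libraries lay above all 3 MPTP libraries, by 0.18 (SE 0.088, limma adjusted p = 0.9999), although the gap between 37.8 and 37.7 FPKM was small. Synj1 was at 20.6, 25.6 and 34.1 FPKM in MPTP + running mice, 23.1, 31.1 and 33.4 FPKM in MPTP mice and 26.0, 41.9 and 18.6 FPKM in vehicle mice. Vehicle libraries held both the lowest and the highest Synj1 value, and the difference of −0.13 for MPTP + running minus MPTP became 0.032 without MPTP + running 1. Dnm1 and Sh3gl2 stayed at 121 to 159 and 36.3 to 45.2 FPKM.

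The share of the variance of log2(FPKM + 1) that lay between groups had a median of 8.11% over the members, against 20.9% over all tested genes and 19.4% over the 4755 genes with a mean at or above that of Pclo, the lowest member. Snap91 had the largest share among the members, 49.9%, followed by Napb and Amph, and Rims1 the smallest, 0.415%. The SD over 9 libraries had a median of 0.23 over the members and 0.16 over all tested genes. In this respect the members were more variable between libraries than the typical tested gene, and a smaller share of their variance lay between groups. With 3 libraries per group, spread among libraries alone gives some share between groups, so these shares do not measure an effect of treatment. Both are descriptions with no test.

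**Figure D3:**
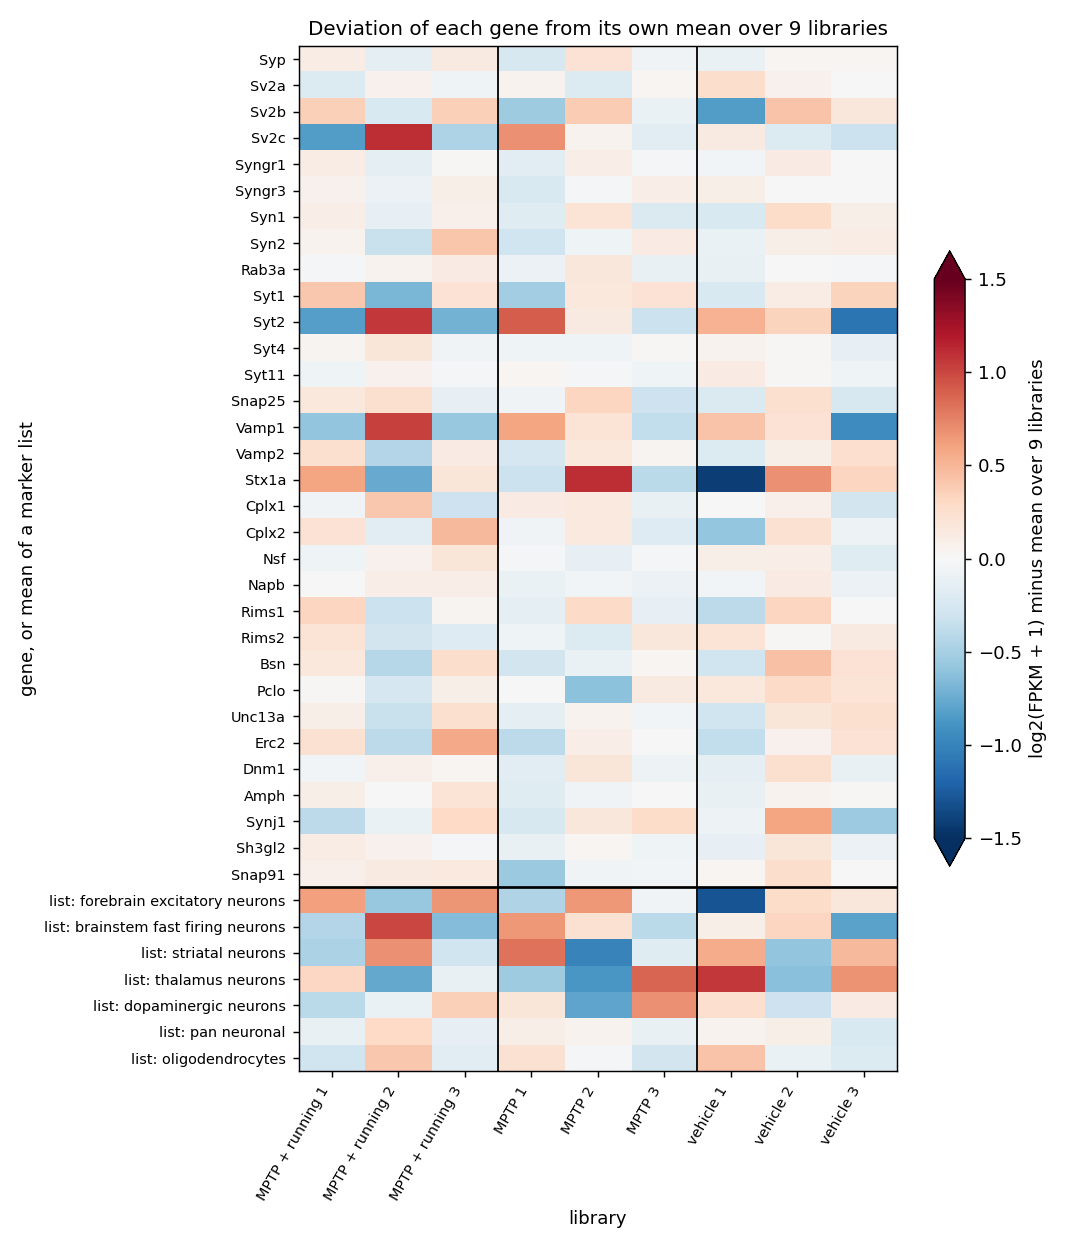
Colours give log2(FPKM + 1) minus the mean over 9 libraries for each of the 32 genes (rows above the line) and for the mean of 7 marker lists (rows below it), with libraries in columns. Syt2, Vamp1 and Sv2c are red in MPTP + running 2 and MPTP 1, where Syt1, Sv2b and the list of forebrain excitatory neurons are blue.

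Part of that spread followed 1 division of the libraries. MPTP + running 2, MPTP 1 and vehicle 1 were each the lowest of their group for 11 members, namely Syp, Sv2b, Syngr1, Syn2, Syt1, Vamp2, Rims1, Bsn, Unc13a, Erc2 and Amph, which is 34.4% of the members, against 10.1% of all tested genes. The same 3 libraries were each the highest of their group for 5 members, Sv2a, Sv2c, Syt2, Syt11 and Vamp1, which is 15.6%, against 10.4% of all genes. These 3 libraries were singled out after their values were seen, as the lowest of each group in the markers of forebrain excitatory neurons. Over all 12 genes of that list, such as Slc17a7 and Neurod6, the summed level was 352 to 916 FPKM in MPTP + running, 481 to 1088 FPKM in MPTP and 211 to 754 FPKM in vehicle libraries, with 352 in MPTP + running 2, 481 in MPTP 1 and 211 FPKM in vehicle 1. The list named for fast-firing brainstem neurons shares Pvalb with the list of GABA neurons and Nefh with that of pan-neuronal genes, so these lists are not independent. Over all 11 genes of the brainstem list, such as Pvalb and Kcna1, the summed level was 238 to 699 FPKM in MPTP + running, 289 to 541 FPKM in MPTP and 225 to 443 FPKM in vehicle libraries. Its highest libraries were MPTP + running 2 (699 FPKM) and MPTP 1 (541 FPKM), and in the vehicle group vehicle 2 was higher than vehicle 1. Of the 12 marker lists in all, 4 had each of the 3 libraries highest in its group by summed level, namely the lists of pan-neuronal genes, GABA neurons, striatal neurons and oligodendrocytes, and 2 had each of them lowest, those of forebrain excitatory neurons and microglia. A sum leans on the most abundant genes of its list. By the mean of log2(FPKM + 1), the pan-neuronal list was higher in vehicle 2 (6.32) than in vehicle 1 (6.28). Single genes also went the other way, such as Gad1 of the GABA list, which was lowest of its group in MPTP + running 2 (33.6 FPKM). The oligodendrocyte sum was 1336 to 2296 FPKM in MPTP + running, 1338 to 1979.5 FPKM in MPTP and 1433 to 2244 FPKM in vehicle libraries, the striatal sum 97.5 to 265 FPKM in MPTP + running, 79.2 to 259 FPKM in MPTP and 86.3 to 213 FPKM in vehicle libraries and the GABA sum 222 to 288 FPKM in MPTP + running, 251 to 302 FPKM in MPTP and 229 to 296 FPKM in vehicle libraries, each with its group maximum in those 3 libraries. Each gene of these lists was above 0 in at least 1 library. The part of these markers in the levels of the members was not tested.

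Over the 6 libraries left without those 3, the spread of 25 of 32 members was smaller, against 49.4% of all tested genes. Its median over the members was 0.15, equal to the 0.15 of all tested genes. Those 3 had been singled out after the values were seen and held the group extremes of many members. Leaving them out tends by construction to lower the spread of such members, so this is a description and no support for the division. For Syt1 the range was 1.23-fold, against 2.14-fold over 9 libraries, and for Sv2c it was 1.998-fold, against 4.34-fold. Vamp2 ranged over 1.15-fold, against 1.62-fold. Pclo and Synj1 kept their full ranges of 2.04-fold and 2.26-fold. In a fit on those 6 libraries no member passed the test, and 25, 16 and 10 of 32 members were higher for MPTP + running minus MPTP, MPTP + running minus vehicle and MPTP minus vehicle.

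**Figure D4:**
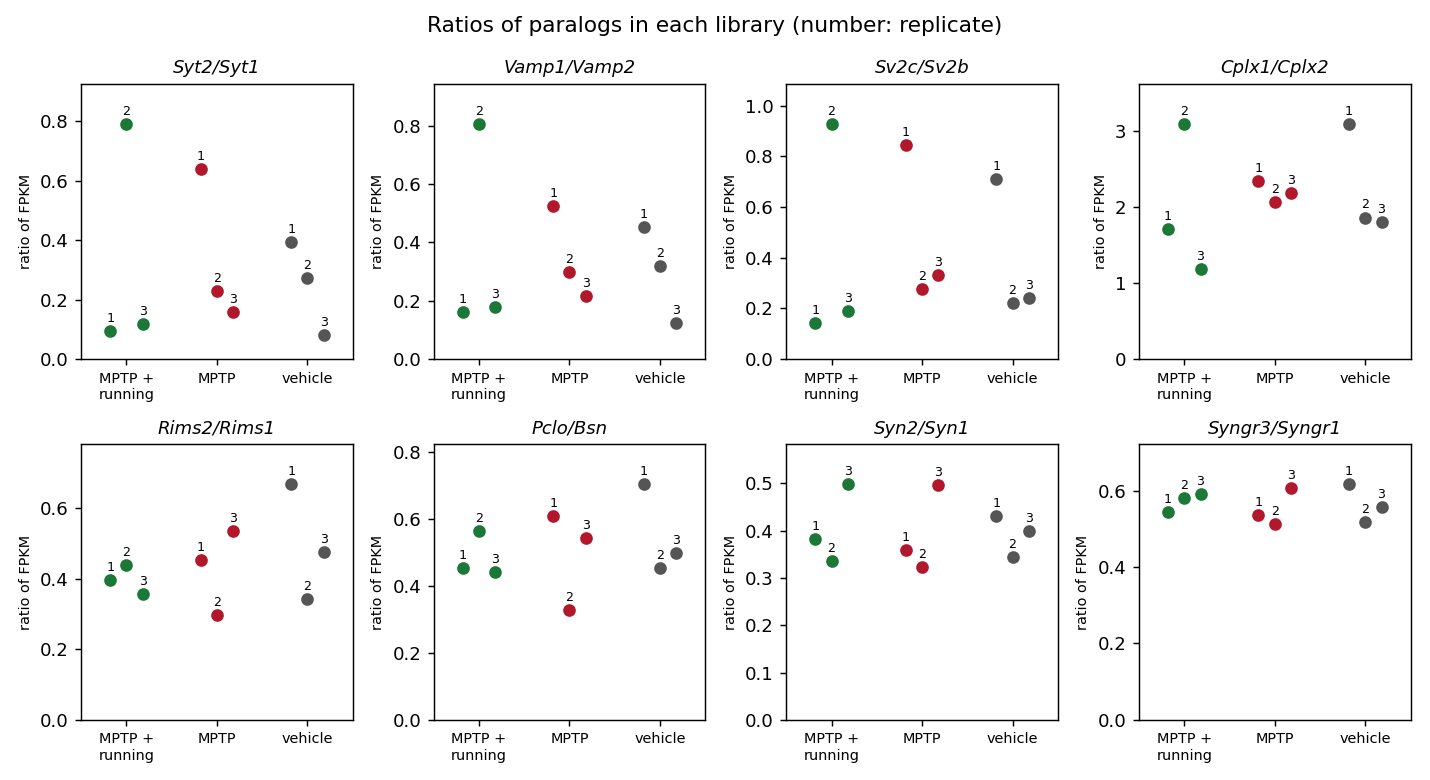
Ratio of the FPKM of 2 paralogs in each library, with the replicate number above each point, for MPTP + running (green), MPTP (red) and vehicle (grey) mice. In Syt2/Syt1, Vamp1/Vamp2 and Sv2c/Sv2b, MPTP + running 2, MPTP 1 and vehicle 1 are the highest of their groups, while Syngr3/Syngr1 hardly varies.

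Ratios between paralogs within a library do not depend on its scaling. Syt2/Syt1, Vamp1/Vamp2 and Sv2c/Sv2b are built from the member values already given. Their division restates those values and is no separate support for it. Syn2/Syn1 did not follow it, being lowest of its group in MPTP + running 2 (0.336) and highest of its group in vehicle 1 (0.430). Syt2/Syt1 was 0.0957, 0.791 and 0.118 in MPTP + running mice, 0.638, 0.227 and 0.158 in MPTP mice and 0.393, 0.272 and 0.0819 in vehicle mice, a range of 9.66-fold. Vamp1/Vamp2 was 0.161, 0.808 and 0.177 in MPTP + running mice, 0.524, 0.298 and 0.215 in MPTP mice and 0.454, 0.318 and 0.124 in vehicle mice, a range of 6.53-fold. Sv2c/Sv2b was 0.141, 0.929 and 0.189 in MPTP + running mice, 0.844, 0.276 and 0.332 in MPTP mice and 0.709, 0.219 and 0.239 in vehicle mice, a range of 6.60-fold. In each of these ratios 1 library of every group stood highest, the same 3 libraries each time, and the rest of each group lay lower, so that the groups overlapped over nearly the whole range. Cplx1/Cplx2 varied 2.62-fold, from 1.18 in MPTP + running 3 to 3.09 in MPTP + running 2 and in vehicle 1. Rims2/Rims1 and Pclo/Bsn varied 2.25-fold and 2.15-fold, each with its highest value in vehicle 1. Sv2c/Sv2a and Sv2b/Sv2a varied 3.59-fold and 3.34-fold. The range was 1.54-fold for Syn2/Syn1 and 1.20-fold for Syngr3/Syngr1. None of the 10 ratios separated any 2 groups. In 30 exact two-sided permutation tests on log2 ratios (10 ratios in 3 comparisons, 3 libraries against 3) the smallest p was 0.2, and all p adjusted over the 30 tests were 1, where 0.1 is the smallest p the design can give.

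No tested gene of the further lists chosen around the pathway passed either. Of 48 further genes of release, 26 of endocytosis, 23 tested of 24 vesicular transporters and proton pump subunits, 9 presynaptic calcium channel subunits and 20 postsynaptic genes, 0 passed in any comparison (limma, adjusted p under 0.05), and at most 3 genes of any of these lists had an unadjusted p under 0.05 in a comparison. Higher values among the release genes numbered 32 of 48 for MPTP + running minus MPTP, 26 for MPTP + running minus vehicle and 17 for MPTP minus vehicle. Of all tested genes, 45.7%, 44.7% and 48.1% were higher in these comparisons, in the same order. These shares are not matched to the level of the release genes. Snap29, a SNARE of intracellular membranes, was at 8.90, 8.03 and 8.17 FPKM in MPTP + running mice, 7.09, 6.68 and 7.27 FPKM in MPTP mice and 6.79, 7.27 and 6.85 FPKM in vehicle mice. The MPTP + running libraries were the 3 highest, by 0.22 over MPTP (SE 0.075, limma adjusted p = 0.9999). Among the endocytosis genes, higher values numbered 17 of 26 for MPTP + running minus MPTP, 11 for MPTP + running minus vehicle and 4 for MPTP minus vehicle. Aak1, a kinase of the clathrin adaptor AP2, was at 10.7, 11.8 and 12.1 FPKM in MPTP + running mice, 10.8, 8.46 and 12.3 FPKM in MPTP mice and 12.4, 14.2 and 12.3 FPKM in vehicle mice, a difference of −0.29 for MPTP minus vehicle (SE 0.13, limma adjusted p = 0.991) with overlapping groups. Ap2s1, a subunit of that adaptor, was at 58.3, 54.7 and 60.9 FPKM in MPTP + running mice, 49.5, 51.1 and 43.3 FPKM in MPTP mice and 53.6, 42.1 and 51.7 FPKM in vehicle mice. All 3 MPTP + running libraries lay above all other libraries for Ap2s1.

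Transporters load vesicles with transmitter along the proton gradient that the vacuolar ATPase builds. In this list higher values numbered 16 of 23 for MPTP + running minus MPTP, 17 for MPTP + running minus vehicle and 15 for MPTP minus vehicle, with a median difference of 0.15 for MPTP + running minus vehicle. Over all genes that median was −0.022, with 44.7% higher, and it was −0.10 when each library was rescaled to the same sum. The values of this list depend on scaling too and were not followed through that rescaling. Atp6v1e1, a stalk subunit of the pump, was at 79.1, 82.2 and 74.6 FPKM in MPTP + running mice, 66.2, 84.3 and 69.4 FPKM in MPTP mice and 64.4, 68.1 and 65.1 FPKM in vehicle mice. All 3 MPTP + running libraries lay above all 3 vehicle libraries, by 0.25 (SE 0.10, limma adjusted p = 0.753), and the MPTP libraries spanned both. The same held between MPTP + running and vehicle for 6.38% of all tested genes. Among calcium channel subunits, higher values numbered 3 of 9 for MPTP + running minus MPTP, 5 for MPTP + running minus vehicle and 3 for MPTP minus vehicle, and among postsynaptic genes 12 of 20 for MPTP + running minus MPTP, 9 for MPTP + running minus vehicle and 5 for MPTP minus vehicle. Cacna1a, the pore of the P/Q-type channel that opens at many terminals, was at 10.2, 9.10 and 10.3 FPKM in MPTP + running mice, 11.3, 8.97 and 10.7 FPKM in MPTP mice and 10.6, 11.8 and 11.3 FPKM in vehicle mice. Its MPTP + running libraries all lay below its vehicle libraries, as for 9.2% of all tested genes.

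Marker lists of other cell types and regions are given beside these values by the signs of their genes. All 10 choroid plexus genes, among them Ttr, were lower in MPTP + running than in MPTP mice and higher in MPTP than in vehicle mice (4 and 9 of them at an unadjusted p under 0.05), and the summed level of the list was 21.6 to 954 FPKM in MPTP + running, 961 to 2083 FPKM in MPTP and 38.3 to 347 FPKM in vehicle libraries. All 12 markers of thalamic neurons were lower in MPTP + running and in MPTP mice than in vehicle mice, with summed levels of 109.7 to 143 FPKM in MPTP + running, 62.7 to 233 FPKM in MPTP and 88.1 to 261 FPKM in vehicle libraries. Of the 12 markers of forebrain excitatory neurons, 11 were higher in MPTP + running and 11 in MPTP than in vehicle mice. All 10 endothelial markers were lower in MPTP + running than in MPTP mice (6 at an unadjusted p under 0.05). Of these 10, 8 were also lower in MPTP + running than in vehicle mice (5 at an unadjusted p under 0.05). Their summed levels were 72.5 to 86.2 FPKM in MPTP + running, 88.9 to 109.8 FPKM in MPTP and 80.7 to 90.8 FPKM in vehicle libraries. Of the 14 pan-neuronal genes, 12 were higher in MPTP + running than in MPTP mice, and their summed level was 1224 to 1804 FPKM in MPTP + running, 1275 to 1447 FPKM in MPTP and 1157 to 1462 FPKM in vehicle libraries. All 9 striatal markers were lower in MPTP than in vehicle mice, and 8 of 9 were lower in MPTP + running than in vehicle mice. Of the 9 markers of GABA neurons, 8 were lower in MPTP + running than in MPTP mice, 8 were lower in MPTP + running than in vehicle mice, and 7 were lower in MPTP than in vehicle mice. Of the 11 brainstem markers, 10 were lower in MPTP + running than in MPTP mice. Of the 10 microglial markers, 9 were lower in MPTP + running than in MPTP mice and 9 were higher in MPTP than in vehicle mice, with summed levels of 128 to 154 FPKM in MPTP + running, 138 to 185 FPKM in MPTP and 125 to 149 FPKM in vehicle libraries. Of the 10 oligodendrocyte markers, 8 were lower in MPTP than in vehicle mice, and the 10 astrocyte markers were split 5 to 5 in both comparisons with MPTP + running. Each gene of these lists was above 0 in at least 1 library, and 0 of them passed the test in any comparison (limma). The part of these markers in the values of the members was not tested.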

How the data were processed

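Gene-level FPKM of 9 libraries were used as the authors deposited them. Per the labels' protocols, mRNA was enriched from total RNA with magnetic beads and sequenced on an Illumina NovaSeq6000. Per the submitters' processing notes, bcl2fastq, HTSeq, DESeq2 and the build GRCm38 were involved. The aligner, the tool behind the FPKM and the strand setting are not stated. Symbols came from GENCODE M21 (55154 IDs matched, 181 did not).

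Values were analysed as log2(FPKM + 1), so folds of low genes are understated. limma with a mean-variance trend was fitted to all 9 libraries at once (6 residual and 2.68 prior degrees of freedom), two-sided, with Benjamini-Hochberg adjustment over all 15997 genes and a threshold of 0.05. The fit was tested on simulated data. No count test was used, since FPKM are not counts. The members, the gene lists and the tests were chosen with earlier results of these data known. Values in every library are given for up to 3 members in each direction with the smallest p per comparison, the 3 highest and 3 lowest members, the 4 most variable ones and the paralog pairs. Other lists are given as counts with at most 2 genes of smallest p. Paralog ratios had exact permutation tests.

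The replicate numbers come from the sample titles, which give them no meaning. MPTP and vehicle libraries that share a number had correlated deviations from the means of their groups (0.251, 0.33 and 0.105). With the same numbers, MPTP + running correlated at −0.339, −0.134 and 0.247 with MPTP, and at −0.265, 0.0069 and 0.241 with vehicle. Libraries with different numbers reached 0.165 (MPTP 3 and vehicle 1) and 0.4 (MPTP 1 and MPTP + running 2). These values do not settle whether the numbers pair libraries. The main fit therefore had no block, and a blocked fit stands beside it in the closing section. Alternatives changed the pseudocount, filter, scaling, libraries, block and weights. R 4.3.3, limma 3.58.1, Python 3.11.15, pandas 2.3.3, numpy 2.4.6, scipy 1.17.1 and matplotlib 3.10.9 were used.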

Additional observations from a re-analysis of the deposited data

How the results depend on the processing

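No member passed the test in any of the 20 alternatives, and at most 2 members had an unadjusted p under 0.05 in any of them. Among 18 differences of single members followed through the alternatives, 5 changed sign at least once. With quantile normalization, Cplx1 was at −0.0028 for MPTP minus vehicle and Rab3a at −0.0080 for MPTP + running minus vehicle. With array weights Synj1 was at 0.0056 for MPTP + running minus MPTP. Leaving out 1 library at a time gave −0.32 to 0.032 for Synj1 and −0.84 to 0.13 for Sv2c in that comparison, and −0.19 to 0.62 for Syt2 in MPTP minus vehicle.

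Over all genes, the 2 calls of MPTP minus vehicle became 0 with only the 2 groups in the fit and 0 with the replicate block in 2 groups (3 with the block over all libraries). They became 0 to 32 leaving out 1 library (32 without MPTP 1) and 24 without MPTP + running 2, MPTP 1 and vehicle 1, an alternative chosen after seeing the data. The 0 calls of MPTP + running minus MPTP became 3 with no filter, 1 with a minimum of 5 FPKM, 1 with array weights, 1 with every library rescaled to an equal sum, 0 to 25 leaving out 1 library (25 without MPTP 1) and 11 without the 3 libraries. Those of MPTP + running minus vehicle became 0 to 2 leaving out 1 library and 1 without the 3 libraries. The cause was not tested. The replicate block changed no call of a member. With 3 libraries per group, the intervals of Stx1a, Syt2, Vamp1 and Sv2c reached beyond 2-fold.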
